A study of Mus with 10 samples.

Results

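NKp46, the receptor encoded by *Ncr1*, has no signalling motif of its own and passes its signal to adaptor chains and then to kinases, scaffolds and enzymes inside the cell. The transcripts of 10 such genes were followed in liver type 1 innate lymphoid cells (ILC1s) with and without NKp46. They were the adaptors *Cd247*, *Fcer1g*, *Tyrobp* and *Hcst*, the kinases *Syk* and *Zap70*, the scaffolds *Lcp2* and *Lat*, and the effectors *Vav1* and *Plcg2*. They were chosen by their place in this pathway, with earlier results of these data known. Looked up by symbol, all 10 were found among the 24564 genes of the deposited table. All 10 also passed the filter on low counts, which left 11463 genes for testing. ILC1s are tissue-resident lymphocytes, and the RNA came from freshly sorted, untreated liver cells of C57BL/6 mice, male or female and between 6 and 8 weeks of age. There were 5 libraries of *Ncr1+/+* ILC1s, gated as Lin-NK1.1+NKp46+CD49b-CD49a+, and 5 libraries of *Ncr1gfp/gfp* ILC1s, in which *gfp* takes the place of *Ncr1* on both alleles and GFP took the place of NKp46 in the gate. Both gates left out cells with lineage markers (Lin), and no other engineered allele is named for these mice. The labels do not say that each library came from a separate animal, so p-values measure the spread between these libraries only.

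In natural killer cells and ILC1s, NKp46 pairs with CD3ζ (encoded by *Cd247*) and FcRγ (*Fcer1g*). These chains carry immunoreceptor tyrosine-based activation motifs, or ITAMs, which Src family kinases phosphorylate when the receptor is engaged. The phosphorylated motifs are docking sites for Syk and ZAP-70, and these kinases go on to phosphorylate scaffolds that hold Vav proteins and phospholipase Cγ close to the membrane. DAP12 (*Tyrobp*) is another ITAM chain, used by several activating receptors of the same cells, while DAP10 (*Hcst*) serves NKG2D and carries a different motif that recruits PI3-kinase.

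The libraries held between 15796253 and 22623133 counts, and each of the 10 genes had at least 1102 counts in every library. Counts were scaled to a common library size with TMM normalization and are given as CPM. *Ncr1* itself stood at 2029 ± 99.97 CPM in *Ncr1+/+* and 259 ± 97.5 CPM in *Ncr1gfp/gfp* ILC1s (SD, 5 libraries each), without overlap, and reads on the replaced gene were still found in every *Ncr1gfp/gfp* library. The summed level of 7 ILC1 markers ranged from 3989 to 4251 CPM in *Ncr1+/+* and from 3973 to 4271 CPM in *Ncr1gfp/gfp* libraries. Of these markers, *Itga1*, which encodes CD49a, rose from 779 to 971 CPM and *Il7r* fell from 166 to 84.6 CPM (quasi-likelihood test of edgeR, adjusted p = 0.000481 and 0.00773). The summed level of 7 natural killer cell markers ranged from 115 to 148 CPM in *Ncr1+/+* and from 129.8 to 196 CPM in *Ncr1gfp/gfp* libraries. Hepatocyte markers were highest in *Ncr1gfp/gfp* replicate 3, at 68.1 CPM over 8 genes, and in *Ncr1+/+* replicate 1, at 37.2 CPM, and were at most 6.66 CPM in the other 8 libraries. Neutrophil markers summed to at most 10.5 CPM in any library, and 4 endothelial markers, mostly *Pecam1*, summed to between 113 and 151 CPM. The others, *Cdh5*, *Kdr* and *Stab2*, had means of 0.316, 0.160 and 1.04 CPM in *Ncr1+/+* and 0.490, 0.291 and 0.855 CPM in *Ncr1gfp/gfp* libraries.

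None of the 10 genes was called between the genotypes. A call needed an adjusted p-value under 0.05, by the quasi-likelihood test of edgeR with p-values adjusted by the Benjamini-Hochberg method, and a fold change above 1.5 or below 0.7, and 0.733% of all tested genes were called. Without the fold threshold the count was also 0 of 10, against 1.35% of all tested genes. The values of every member overlapped between the genotypes. Of all tested genes, 3.11% did not overlap, and 0 of 10 is near that share. At an unadjusted p-value under 0.05, 3 of the 10 passed by the same edgeR test, namely *Cd247*, *Tyrobp* and *Plcg2*, each with the higher mean in *Ncr1gfp/gfp* ILC1s, and 11.4% of all tested genes passed at this level. The same 3 genes passed unadjusted with DESeq2 and with edgeR's likelihood ratio test, and limma-voom with sample quality weights added *Syk*. *Cd247* no longer passed unadjusted without *Ncr1gfp/gfp* replicate 2 or without *Ncr1+/+* replicate 2, and *Tyrobp* no longer passed in the 8 libraries lower in hepatocyte markers. No member passed after adjustment with any of these tools, and the lowest adjusted p-value over all alternatives was 0.0963, for *Plcg2* with DESeq2.

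The intervals of these differences were narrow. The 95% interval of each of the 10 fold changes lay between 0.7 and 1.5, which held for 68.5% of all tested genes. The median standard error of the log2 fold change was 0.053 over the members and 0.12 over all tested genes, which were not matched to the members by level. The median log2 fold change was 0.05 over the members and 0.00 over all tested genes, with 7 members above and 3 below zero. In bulk libraries, fewer cells that express a gene and less RNA per cell cannot be told apart.

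**Figure D1:**
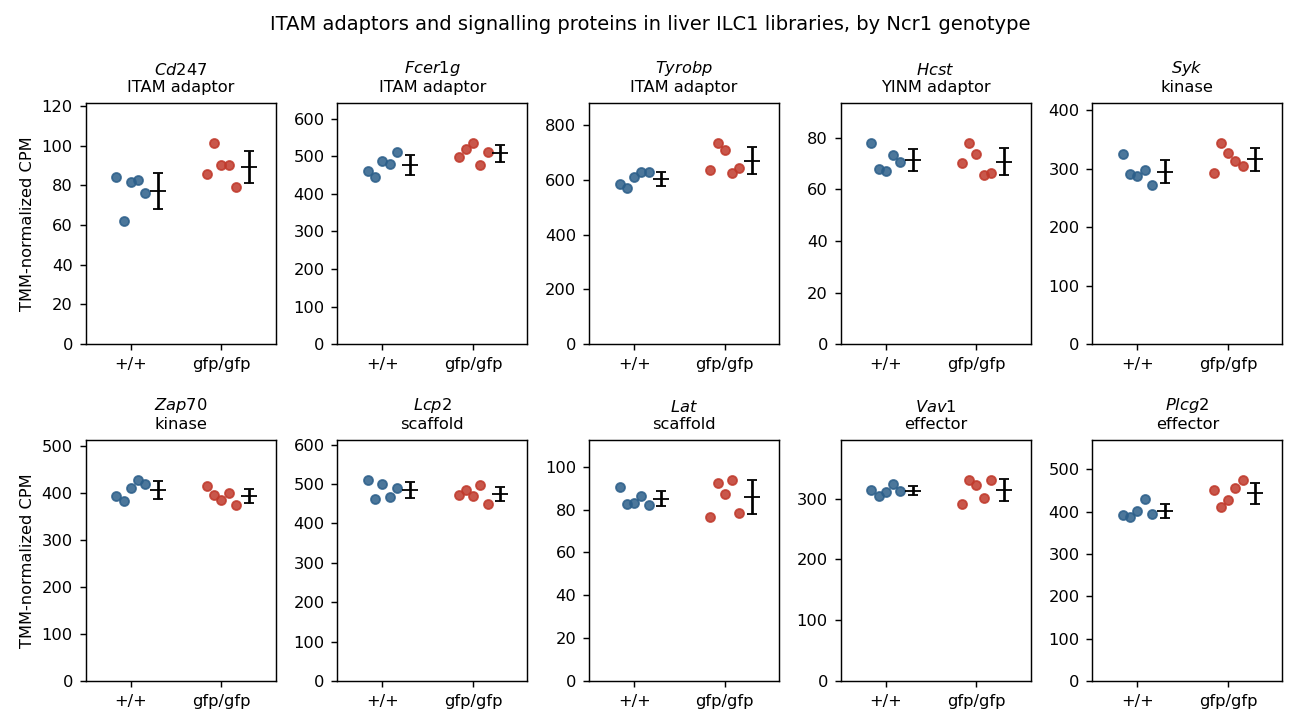
Each panel plots the TMM-normalized CPM of 1 gene (y axis, from 0) in the 5 *Ncr1+/+* (blue) and 5 *Ncr1gfp/gfp* (red) libraries, with the mean and SD beside the points. The points of the genotypes overlap in all 10 panels, and *Cd247*, *Tyrobp* and *Plcg2* show the clearest shift upward in *Ncr1gfp/gfp* libraries.

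**Figure D2:**
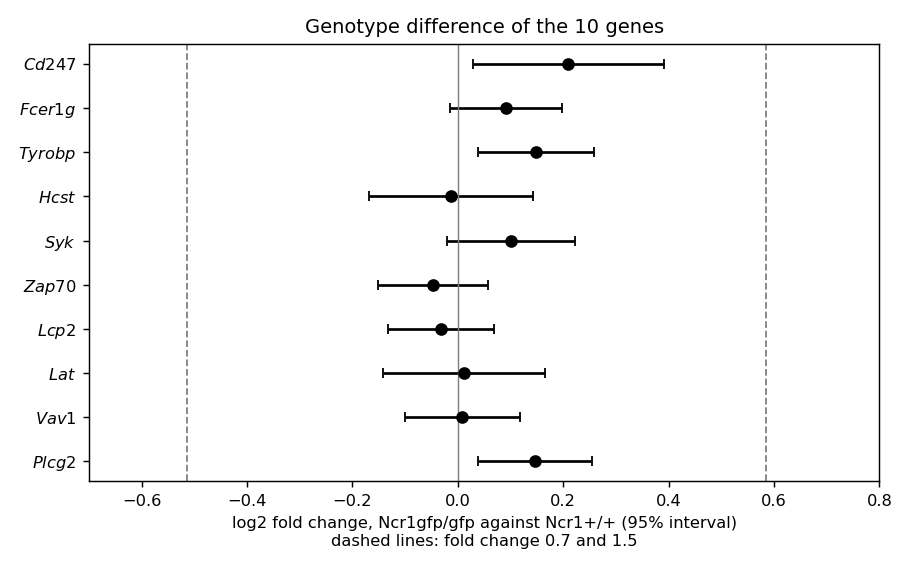
Points are log2 fold changes of *Ncr1gfp/gfp* against *Ncr1+/+* ILC1s (x axis) from edgeR's quasi-likelihood fit, with their 95% intervals as bars. All 10 intervals lie between the dashed lines at fold changes of 0.7 and 1.5, and those of *Cd247*, *Tyrobp* and *Plcg2* lie above zero.

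The ITAM chains come first in the pathway, and the log2 fold change of *Cd247* was the largest of the 10 genes in the fit to all libraries. It was 0.14 without *Ncr1+/+* replicate 2 and 0.16 without *Ncr1gfp/gfp* replicate 2, where *Plcg2* was higher at 0.17. *Cd247* had 84.1, 61.9, 81.8, 82.6 and 75.9 CPM in *Ncr1+/+* replicates 1 to 5 and 85.6, 101, 90.4, 89.9 and 79.3 CPM in *Ncr1gfp/gfp* replicates 1 to 5. Its highest value was in *Ncr1gfp/gfp* replicate 2 and its lowest in *Ncr1+/+* replicate 2, and *Ncr1gfp/gfp* replicate 5 lay inside the *Ncr1+/+* range. The means were 89.3 ± 7.97 CPM in *Ncr1gfp/gfp* and 77.3 ± 9.12 CPM in *Ncr1+/+* ILC1s (SD, 5 libraries each), a fold change of 1.16 with a 95% interval of 1.02 to 1.31 (log2 fold change 0.21, standard error 0.087). The adjusted p-value was 0.331 (edgeR's quasi-likelihood test). *Cd247* spans chromosome 1 from 167718812 to 167801284 on the plus strand, in coordinates whose genome build the table does not name, and overlaps *Pou2f1* on the opposite strand by 6000 bases. The library kit does not mark strand, so that reads in the overlap could belong to either gene. *Pou2f1* had 137 ± 17.6 CPM in *Ncr1gfp/gfp* and 123 ± 15.3 CPM in *Ncr1+/+* ILC1s (SD, 5 libraries each), with an adjusted p-value of 0.581 in the same edgeR test.

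CD3ζ is also the signalling chain of the T cell receptor, and 4 of the 9 tested markers of T cells passed the edgeR test, 3 higher and 1 lower in *Ncr1gfp/gfp* ILC1s. The summed level of 12 T cell markers was 658, 642, 733, 740.4 and 742 CPM in *Ncr1+/+* and 831, 993, 991, 889 and 815 CPM in *Ncr1gfp/gfp* replicates 1 to 5, without overlap. Most of this sum was *Cd3g*, a CD3 subunit, which rose from 501 ± 53.1 to 687 ± 74.6 CPM (SD, n = 5 each, edgeR's quasi-likelihood test, adjusted p = 0.00169). *Cd3e*, another CD3 subunit, rose from 5.72 to 21.1 CPM, and *Cd8a*, a subunit of the CD8 co-receptor, rose from 6.69 to 19.4 CPM (adjusted p = 0.00235 and 0.0248, same edgeR test). *Cd28*, a co-stimulatory receptor of T cells, fell from 43.1 to 22.6 CPM (adjusted p = 0.0189, same edgeR test). *Bcl11b*, a transcription factor of T cells, stood at 134 CPM in *Ncr1+/+* and 133 CPM in *Ncr1gfp/gfp* ILC1s, with a log2 fold change of -0.01. *Cd5*, *Cd6* and *Cd8b1* did not pass the filter, with 0.121, 0.0189 and 0.304 CPM in *Ncr1+/+* and 0.919, 0.424 and 0.0106 CPM in *Ncr1gfp/gfp* ILC1s. *Cd4* stood at 1.95 CPM in *Ncr1+/+* and 2.31 CPM in *Ncr1gfp/gfp* ILC1s. In the same order, *Cd3d* had 6.62 and 13.6 CPM (adjusted p = 0.0527, same edgeR test). *Themis* had 0.243 and 0.670 CPM, and *Trat1* had 2.90 and 2.60 CPM. The part of these cells or transcripts in the level of *Cd247* was not tested. *Zap70* and *Lat*, which T cells also use, had log2 fold changes of -0.05 and 0.01.

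*Fcer1g* had 461, 445, 487, 479 and 512 CPM in *Ncr1+/+* and 499, 519.7, 535, 476 and 513 CPM in *Ncr1gfp/gfp* replicates 1 to 5. *Ncr1gfp/gfp* replicate 4 lay below 3 of the *Ncr1+/+* libraries, and *Ncr1+/+* replicate 5 lay level with *Ncr1gfp/gfp* replicate 5. The fold change was 1.07 with a 95% interval of 0.990 to 1.15, and the adjusted p-value was 0.524 (edgeR's quasi-likelihood test). The gene lies on chromosome 1 from 173159703 to 173164480, minus strand.

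*Tyrobp* had 585, 569, 609, 627 and 629 CPM in *Ncr1+/+* and 637, 733, 710.3, 625 and 643 CPM in *Ncr1gfp/gfp* replicates 1 to 5. *Ncr1gfp/gfp* replicates 1, 2, 3 and 5 were above all *Ncr1+/+* libraries, and only replicate 4 reached into their range. Means of 669.6 ± 48.8 against 604 ± 26.2 CPM (SD, n = 5 each) gave a fold change of 1.11 with a 95% interval of 1.03 to 1.20 (log2 fold change 0.15, standard error 0.053, edgeR's quasi-likelihood test, adjusted p = 0.22). Macrophages and Kupffer cells express *Fcer1g* and *Tyrobp* as well, and 11 of their markers together ranged from 16.7 to 82.0 CPM in *Ncr1+/+* and from 12.5 to 55.8 CPM in *Ncr1gfp/gfp* libraries, with medians of 40.8 and 33.3 CPM. None of the 9 markers tested passed, and the defining Kupffer cell genes *Clec4f* and *Vsig4* were at or under 3.85 CPM on average in both genotypes. The highest markers were *Lyz2*, *Csf1r* and *Cd68*, with means of 11.9, 7.44 and 6.25 CPM in *Ncr1+/+* and 9.19, 6.27 and 5.03 CPM in *Ncr1gfp/gfp* libraries. Basophil and mast cell markers, of which *Ms4a2* and *Fcer1a* had no count in any library, summed to at most 1.52 CPM.

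*Hcst* had 77.8, 68.1, 67.0, 73.4 and 70.6 CPM in *Ncr1+/+* and 70.2, 77.8, 73.6, 65.5 and 66.2 CPM in *Ncr1gfp/gfp* replicates 1 to 5. The libraries of both genotypes were interleaved, and the highest library of each reached 77.8 CPM. The fold change was 0.991 with a 95% interval of 0.889 to 1.10 (edgeR's quasi-likelihood test, adjusted p = 0.971), and its direction turned when single libraries were left out. *Tyrobp* and *Hcst* are neighbours on chromosome 7, at 31198807 to 31202598 on the plus strand and 31202731 to 31204873 on the minus strand, so that they face each other tail to tail with 132 bases between them. Both lie 26.9 Mb from *Ncr1*, the edited locus on the same chromosome. The level of *Tyrobp* per level of *Hcst*, each divided by its exon length, was 5.88, 6.53, 7.10, 6.67 and 6.95 in *Ncr1+/+* and 7.09, 7.36, 7.53, 7.44 and 7.58 in *Ncr1gfp/gfp* replicates 1 to 5, and only the lowest *Ncr1gfp/gfp* library lay inside the *Ncr1+/+* range. Since this ratio was picked with its values in view, no test is given.

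The kinases stood on opposite sides of zero. *Syk*, which does not need a Src kinase to be active, had 325, 291, 288, 298 and 272 CPM in *Ncr1+/+* and 293, 343, 326, 314 and 304 CPM in *Ncr1gfp/gfp* replicates 1 to 5. *Ncr1+/+* replicate 1 and *Ncr1gfp/gfp* replicate 1 each lay among the libraries of the other genotype. The fold change was 1.07 with a 95% interval of 0.985 to 1.17 (edgeR's quasi-likelihood test, adjusted p = 0.55). B cells express *Syk* and *Plcg2* at high levels, and 9 B cell markers together summed to at most 10.8 CPM in any library. The highest of the 9 were *Cd22* and *Cd79b*, at 3.87 and 2.64 CPM on average in *Ncr1+/+* and 4.08 and 3.79 CPM in *Ncr1gfp/gfp* ILC1s. *Pax5* and *Ms4a1* were under 0.05 CPM on average in both genotypes.

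*Zap70*, which depends on Lck for its activation, had 393, 383, 411, 428 and 419.5 CPM in *Ncr1+/+* and 415, 396, 386, 399.7 and 375 CPM in *Ncr1gfp/gfp* replicates 1 to 5. *Ncr1+/+* replicates 4 and 5 were the highest, and the other libraries were interleaved. Its fold change was 0.968 with a 95% interval of 0.901 to 1.04 (edgeR's quasi-likelihood test, adjusted p = 0.82). *Syk* lies on chromosome 13 from 52678806 to 52744161 and *Zap70* on chromosome 1 from 36818643 to 36839665, both on the plus strand.

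To compare the kinases within a library, the level of *Zap70* per kb of exon was divided by that of *Syk*, a ratio that does not depend on the scaling of the library. It was 2.34, 2.56, 2.76, 2.79 and 2.99 in *Ncr1+/+* and 2.74, 2.23, 2.29, 2.47 and 2.39 in *Ncr1gfp/gfp* replicates 1 to 5, with geometric means of 2.68 and 2.42. The level of *Zap70* was thus above that of *Syk* in all 10 libraries. The difference between the genotypes, -0.15 on the log2 scale, was within the spread of the libraries (two-sided exact permutation test, n = 5 each, p = 0.103, or 0.159 after Benjamini-Hochberg adjustment over 8 ratios computed). Of these, only this ratio and *Fcer1g* to *Cd247* were planned. The adjusted values of both are therefore not those of planned ratios alone. Replicate 1 of each genotype lay on the side of the other genotype. Without *Ncr1gfp/gfp* replicate 1 the difference was -0.19 (exact permutation p = 0.0476), and without *Ncr1+/+* replicate 1 it was -0.20 (exact permutation p = 0.0317). Without any other single library, the exact permutation p-value lay between 0.103 and 0.198. An exact permutation within replicate numbers gave p = 0.25. None of these p-values is adjusted. The ratio of the NKp46 chains, *Fcer1g* to *Cd247*, had geometric means of 43.4 in *Ncr1+/+* and 39.9 in *Ncr1gfp/gfp* ILC1s, a difference of -0.12 on the log2 scale that was within the spread (two-sided exact permutation test, n = 5 each, p = 0.23, adjusted p = 0.263). Without single libraries this difference ranged from -0.17 to -0.07, and it was nearest to zero without *Ncr1+/+* replicate 2.

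**Figure D3:**
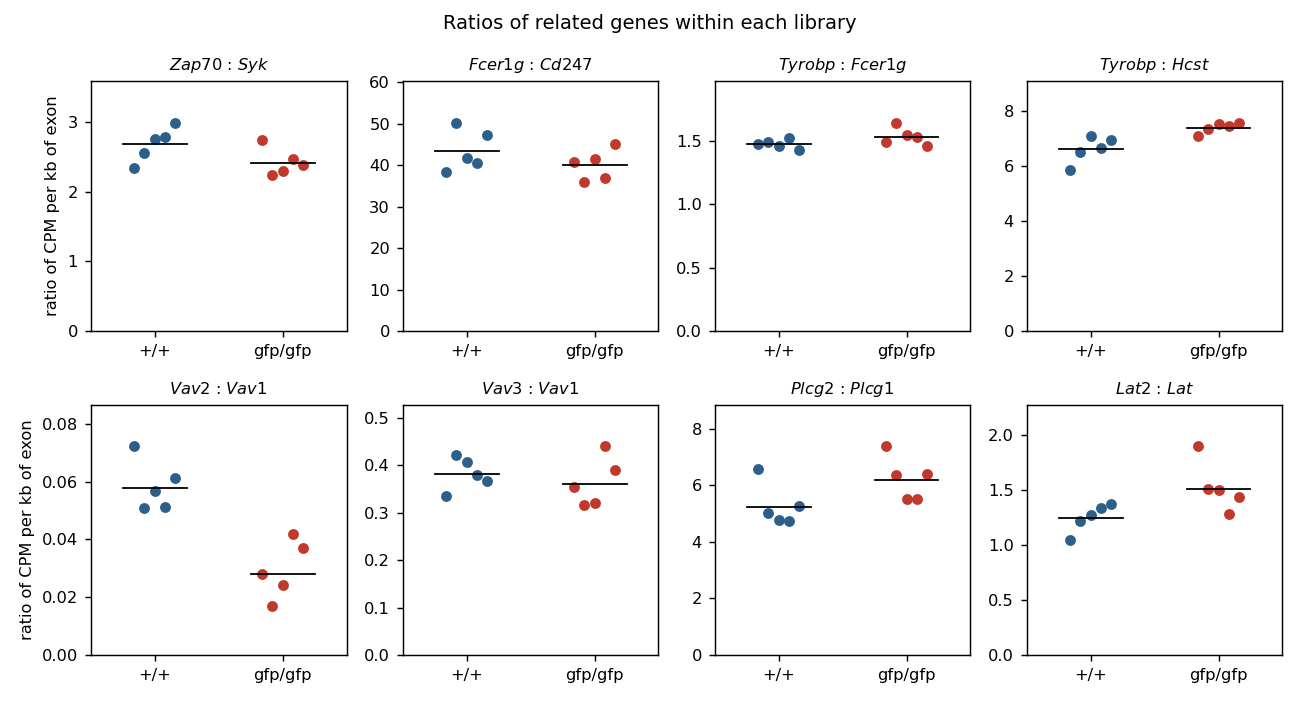
Each point is 1 library, and each panel plots the ratio of 2 related genes in CPM per kb of exon (y axis, from 0) by genotype, with a line at the geometric mean. The *Zap70* to *Syk* ratios overlap, with replicate 1 of each genotype toward the other, and the *Vav2* to *Vav1* ratio is the panel in which the genotypes do not overlap.

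The scaffolds had fold changes near 1. SLP-76, encoded by *Lcp2*, and LAT are phosphorylated by Syk and ZAP-70 and hold the effectors together. *Lcp2* had 509.9, 462, 499, 466 and 490.0 CPM in *Ncr1+/+* and 472, 485, 470.2, 498 and 449 CPM in *Ncr1gfp/gfp* replicates 1 to 5. The highest value was in *Ncr1+/+* replicate 1 and the lowest in *Ncr1gfp/gfp* replicate 5, with the others interleaved. The fold change was 0.978 with a 95% interval of 0.912 to 1.05 (edgeR's quasi-likelihood test, adjusted p = 0.88). *Lat* had 90.7, 82.6, 83.3, 86.6 and 82.2 CPM in *Ncr1+/+* and 76.4, 92.3, 87.5, 93.8 and 78.5 CPM in *Ncr1gfp/gfp* replicates 1 to 5. The *Ncr1gfp/gfp* libraries enclosed the *Ncr1+/+* range, with the 2 lowest and the 2 highest values, and the fold change was 1.01 with a 95% interval of 0.906 to 1.12 (adjusted p = 0.976, same edgeR test). *Lcp2* lies on chromosome 11 from 33947201 to 33992280, plus strand, and *Lat* on chromosome 7 from 133507342 to 133513082, minus strand.

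LAT2, also called NTAL, is a relative of LAT found in B cells, mast cells and natural killer cells. *Lat2* had 125, 133, 140.3, 153 and 149 CPM in *Ncr1+/+* and 191, 184, 173, 159 and 149 CPM in *Ncr1gfp/gfp* replicates 1 to 5, with *Ncr1gfp/gfp* replicate 5 inside the *Ncr1+/+* range. Its log2 fold change of 0.29 (standard error 0.075) had an adjusted p-value of 0.06 in edgeR's quasi-likelihood test, which is not past the threshold. Per kb of exon, *Lat2* made up 55.5% of the sum of both genes in *Ncr1+/+* and 60.2% in *Ncr1gfp/gfp* ILC1s on average.

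Of the effectors, *Vav1*, an exchange factor for small GTPases, had 315, 304, 310.2, 324 and 313 CPM in *Ncr1+/+* and 291, 330.4, 322, 300.4 and 331 CPM in *Ncr1gfp/gfp* replicates 1 to 5. The *Ncr1gfp/gfp* libraries again enclosed the *Ncr1+/+* range. The fold change was 1.01 with a 95% interval of 0.933 to 1.09 (edgeR's quasi-likelihood test, adjusted p = 0.973). The directions of *Lat* and *Vav1* turned when single libraries were left out. *Vav1* lies on chromosome 17 from 57418523 to 57468659, plus strand.

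*Plcg2* encodes phospholipase Cγ2, which makes the second messengers that release calcium and activate protein kinase C. It had 393, 387, 402, 429.6 and 394 CPM in *Ncr1+/+* and 451, 412, 427, 456 and 475 CPM in *Ncr1gfp/gfp* replicates 1 to 5. Only *Ncr1+/+* replicate 4 reached into the *Ncr1gfp/gfp* range, above *Ncr1gfp/gfp* replicates 2 and 3. With means of 444 ± 24.8 CPM in *Ncr1gfp/gfp* and 401 ± 16.8 CPM in *Ncr1+/+* ILC1s (SD, 5 libraries each), the fold change was 1.11 with a 95% interval of 1.03 to 1.19 (log2 fold change 0.15, standard error 0.052, edgeR's quasi-likelihood test, adjusted p = 0.218). Its relative *Plcg1*, the main phospholipase Cγ of T cells, had a log2 fold change of -0.10 with a 95% interval of -0.31 to 0.11. Per kb of exon, *Plcg2* made up 83.9% of the sum of both genes in *Ncr1+/+* and 86.1% in *Ncr1gfp/gfp* ILC1s on average. *Plcg2* lies on chromosome 8 from 120022175 to 120159042, plus strand.

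Among the other pathway genes tested, *Vav2* was the one gene called, and it belongs to the family of *Vav1*. *Vav2* had 32.2, 21.9, 24.9, 23.5 and 27.2 CPM in *Ncr1+/+* and 11.6, 7.86, 11.1, 17.8 and 17.4 CPM in *Ncr1gfp/gfp* replicates 1 to 5. Every *Ncr1gfp/gfp* library was below every *Ncr1+/+* library. It fell from 25.9 ± 4.03 to 13.2 ± 4.31 CPM (SD, n = 5 each), with -0.98 as log2 fold change (standard error 0.18, edgeR's quasi-likelihood test, adjusted p = 0.00525). Without the libraries highest in hepatocyte markers, *Ncr1gfp/gfp* replicate 3 and *Ncr1+/+* replicate 1, the log2 fold change was -0.84. The call was then lost (adjusted p = 0.0589, same edgeR test). That alternative, chosen after seeing the data, was the 1 of 18 in which *Vav2* did not pass adjustment. Leaving out single libraries gave log2 fold changes from -1.11 to -0.84. *Vav3*, the other relative, had 146 CPM in *Ncr1+/+* and 139.7 CPM in *Ncr1gfp/gfp* ILC1s, with a 95% interval of the log2 fold change of -0.23 to 0.10. Per kb of exon, *Vav1* made up 69.4% of the Vav transcripts in *Ncr1+/+* and 71.8% in *Ncr1gfp/gfp* ILC1s on average, *Vav3* made up 26.5% and 26.1%, and *Vav2* made up 4.06% and 2.10%. The gene that fell was thus the least abundant of the family.

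Levels were compared between genes only as CPM per kb of exon, using the exon lengths in the table. The order of the 10 genes by this level was the same in both genotypes. *Tyrobp* was first, at 1067 in *Ncr1+/+* and 1183 in *Ncr1gfp/gfp* ILC1s, and *Fcer1g* was next, at 725 and 772. *Hcst* followed at 162 and 159.9, *Zap70* at 149.6 and 145, *Lcp2* at 145 and 142, and *Plcg2* at 93.0 and 103. *Vav1* stood at 75.1 and 75.6, *Lat* at 67.1 and 67.6, *Syk* at 55.9 and 59.9, and *Cd247* was last, at 16.8 and 19.4. The ranges over the 10 libraries overlapped between *Hcst* and *Zap70*, *Zap70* and *Lcp2*, *Vav1* and *Lat*, and *Lat* and *Syk*, and within a library the first of each pair was above the second in 10, 8, 9 and 10 of 10 libraries. *Tyrobp* was above 99.9% of all tested genes at this level, *Syk* above 91.2% and *Cd247* above 64.8%. Of the ITAM chains summed per kb of exon, *Tyrobp* made up 59.0% in *Ncr1+/+* and 59.9% in *Ncr1gfp/gfp* ILC1s, *Fcer1g* 40.1% and 39.1%, and *Cd247* 0.927% and 0.982%. The exon length covers all exons listed for a gene, so that a gene with long exons that are rarely used is understated.

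**Figure D4:**
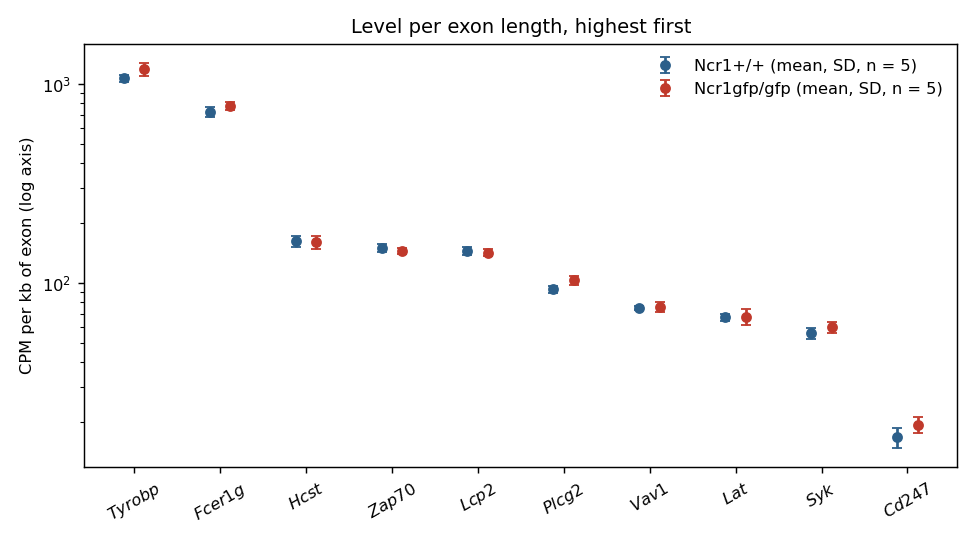
Points are mean CPM per kb of exon (y axis, log scale) with SD (n = 5) in *Ncr1+/+* (blue) and *Ncr1gfp/gfp* (red) ILC1s, with genes ordered from highest to lowest along the x axis. *Tyrobp* and *Fcer1g* stand apart at the top, *Cd247* stands apart at the bottom, and the order is the same in both genotypes.

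The members varied little between libraries of 1 genotype. The SD of log2 CPM within a genotype had a median of 0.079 over the members. The median was 0.18 over all tested genes, which were not matched to the members by level. A spread particular to the members is therefore not shown. *Lcp2* had the smallest SD of the members, and 2.15% of all tested genes had a smaller one. *Cd247* had the largest SD of the members, and 40.5% of all tested genes had a smaller one. In some libraries most members lay on the same side of the genotype mean. In *Ncr1+/+* replicate 2, 0 of the 10 members lay above the mean of the genotype, with *Cd247* the farthest below at -0.31 on the log2 scale. In *Ncr1gfp/gfp* replicate 2 and *Ncr1+/+* replicate 4, 9 of the 10 lay above the mean of the genotype.

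The rest of the pathway was described with a list of 105 genes, of which 92 were tested. Of these, 50 had a higher and 42 a lower mean in *Ncr1gfp/gfp* ILC1s, and the median log2 fold change was 0.01. After adjustment 4 passed a p-value of 0.05 by edgeR's quasi-likelihood test, 3 higher and 1 lower, and 1 was called, next to the 1.35% and 0.733% of all tested genes given above. The 95% interval of the fold change lay between 0.7 and 1.5 for 78 of the 92.

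**Figure D5:**
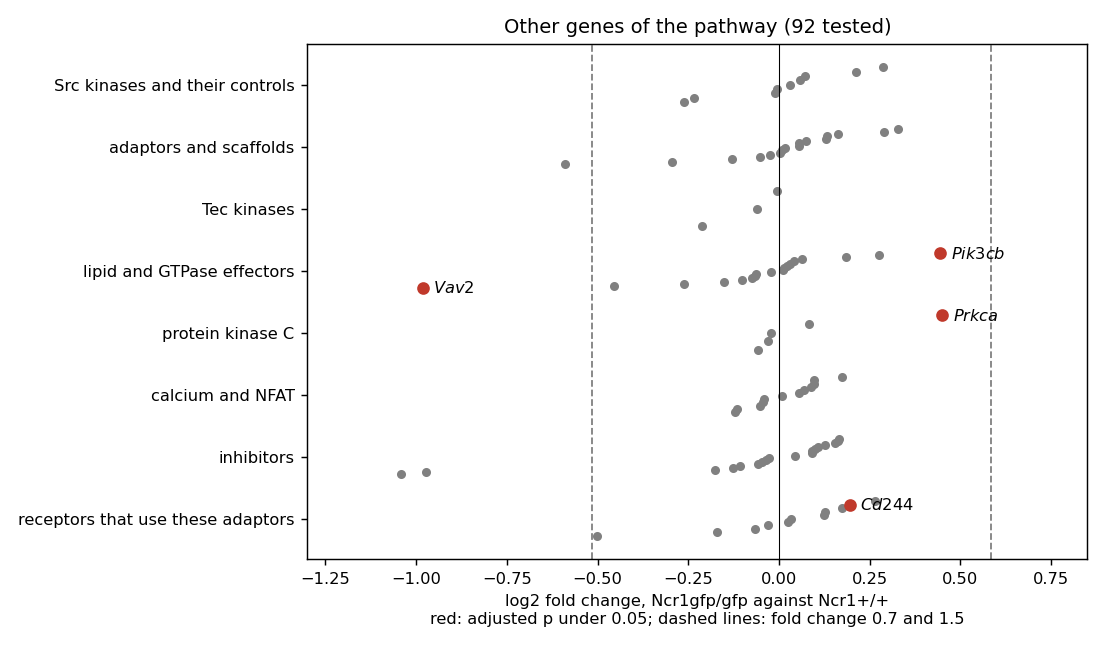
Each point is 1 of the 92 other pathway genes tested, placed by its log2 fold change of *Ncr1gfp/gfp* against *Ncr1+/+* ILC1s (x axis) and grouped by role (y axis), with the 4 genes of adjusted p-value under 0.05 in red. Dashed lines mark fold changes of 0.7 and 1.5, and *Vav2*, at -0.98, is the red point outside them.

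Upstream of the ITAMs, none of the 9 tested Src kinases and their regulators passed the test, and their log2 fold changes ranged from -0.26 to 0.29. *Lck*, which phosphorylates ITAMs in T cells and natural killer cells, had 693 CPM in *Ncr1+/+* and 691 CPM in *Ncr1gfp/gfp* ILC1s, and its log2 fold change had a 95% interval of -0.11 to 0.10. *Fyn*, *Lyn*, the inhibitory kinase *Csk* and the CD45 phosphatase *Ptprc* had log2 fold changes of 0.07, 0.03, -0.01 and 0.06. None of 16 other adaptors and scaffolds passed, and their log2 fold changes ranged from -0.59 to 0.33. *Grb2*, which links receptors to Ras, had a log2 fold change of -0.05, and *Grap2*, which binds SLP-76, had one of 0.16 (edgeR's quasi-likelihood test, adjusted p = 0.162). *Txk*, a Tec kinase, a family that activates phospholipase Cγ, had a log2 fold change of -0.06. None of the 3 tested Tec kinases passed, and their log2 fold changes ranged from -0.21 to -0.01.

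Downstream, 2 of 18 lipid and GTPase effectors passed the test, *Vav2* as above and *Pik3cb*. *Pik3cb*, a catalytic subunit of PI3-kinase, rose from 46.2 ± 3.88 to 62.8 ± 8.87 CPM (SD, n = 5 each, log2 fold change 0.44, edgeR's quasi-likelihood test, adjusted p = 0.0219), with *Ncr1gfp/gfp* replicate 4 inside the *Ncr1+/+* range. It no longer passed in 7 of 18 alternatives, 6 of which left out 1 library (replicate 1, 2 or 3 of *Ncr1gfp/gfp* or replicate 1, 3 or 5 of *Ncr1+/+*), at adjusted p-values of up to 0.066. The other was the fit to the 8 libraries lower in hepatocyte markers (adjusted p = 0.121, same edgeR test). *Pik3cd*, the catalytic subunit typical of leukocytes, stood at 1145 CPM in *Ncr1+/+* and 1156 CPM in *Ncr1gfp/gfp* ILC1s, with a log2 fold change of 0.01.

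Of 5 protein kinase C genes, *Prkca* passed the test. It had 104, 113, 141, 109.6 and 123 CPM in *Ncr1+/+* and 196, 166, 151, 148 and 146 CPM in *Ncr1gfp/gfp* replicates 1 to 5, so that every *Ncr1gfp/gfp* library was above every *Ncr1+/+* library. *Prkca* rose from 118 ± 14.6 to 161 ± 20.7 CPM (SD, n = 5 each, log2 fold change 0.45, standard error 0.089, edgeR's quasi-likelihood test, adjusted p = 0.00884), a fold change below the limit of 1.5, and passed in all 18 alternatives. *Prkcq*, the isoform that acts at the T cell synapse, had a log2 fold change of -0.02. None of 12 calcium and NFAT genes passed, and their log2 fold changes ranged from -0.12 to 0.17.

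None of the 18 inhibitors passed the test. The phosphatase genes *Ptpn6* (SHP-1) and *Inpp5d* (SHIP-1) had log2 fold changes of 0.09 and -0.04, and *Cblb*, a ubiquitin ligase that restrains activated kinases, had one of -0.11. The lowest of this group were *Dok3* and *Sit1*, chosen here after their values were seen, with log2 fold changes of -1.04 and -0.97, and both stood near or under 1 CPM.

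Apart from *Ncr1*, 20 activating receptors were listed as users of these adaptors, and 11 were tested. *Fcgr3*, the Fc receptor CD16 that pairs with FcRγ, had 80.8 CPM in *Ncr1+/+* and 88.2 CPM in *Ncr1gfp/gfp* ILC1s (log2 fold change 0.13, edgeR's quasi-likelihood test, adjusted p = 0.536). *Klrk1*, which encodes NKG2D, had 1269.9 and 1213 CPM and a log2 fold change of -0.07. *Cd244* was the receptor gene that passed. It encodes 2B4, which signals through SAP rather than through an ITAM chain, so that its place in this list is loose. *Cd244* had 717, 803, 789, 780.4 and 749.6 CPM in *Ncr1+/+* and 823, 864, 875, 929 and 901 CPM in *Ncr1gfp/gfp* replicates 1 to 5, without overlap, and rose by a log2 fold change of 0.19 (edgeR's quasi-likelihood test, adjusted p = 0.0381). It no longer passed in 10 of 18 alternatives, 8 of which left out 1 library (any but *Ncr1gfp/gfp* replicate 1 and *Ncr1+/+* replicate 2), at adjusted p-values of up to 0.105. The others were edgeR's likelihood ratio test (adjusted p = 0.0501) and the 8 libraries lower in hepatocyte markers (adjusted p = 0.165, edgeR's quasi-likelihood test). The receptor genes *Klra4* and *Fcer1a* had no count in any library.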

How the data were processed

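RNA of sorted liver ILC1s (5 *Ncr1+/+* and 5 *Ncr1gfp/gfp* libraries) was amplified with a polyA-primed kit that does not mark strand. After trimming, the authors aligned the reads with STAR and used HTSeq to obtain read counts per gene, which they deposited unnormalized. The table names no genome build. The paper states that reads were mapped to mm10, but the coordinates given here, which are the table's own, differ from that build. All 10 count columns were matched to samples by title, and 0 columns belonged to other samples. The members and gene lists were chosen with earlier results of these data known.

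Genes were filtered with filterByExpr, scaled with TMM and tested with edgeR 4.0.16 (R 4.3.3) by the quasi-likelihood test, with Benjamini-Hochberg adjustment over the 11463 tested genes. Calls required an adjusted p-value below 0.05 together with a fold change over 1.5 or under 0.7, following the study's methods. Standard errors and 95% intervals were taken from the F statistic and are not adjusted for the number of genes. Ratios were taken of CPM per kb of exon and compared over libraries with a two-sided exact permutation test, whose smallest p-value for 5 against 5 is 0.00794. Named were the members, *Ncr1*, 20 pathway genes listed by name (1 of them is not reported here), and every pathway or marker gene whose adjusted p-value was below 0.05; a few further genes are given for context, chosen with their values in view. The marker lists covered ILC1s, natural killer cells, T cells, B cells, macrophages and Kupffer cells, neutrophils, basophils and mast cells, hepatocytes and endothelial cells.

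Library totals were between 15796253 and 22623133 counts, so that 3 counts, the most that a count of 0 allows, correspond to between 0.132 and 0.190 CPM; this covers counting error only. No pair of libraries of 1 genotype agreed within sampling noise (chi-square per gene of at least 9.21 over 20 pairs). Alternatives were DESeq2 1.42.0 with its size factors, upper-quartile scaling, limma-voom with sample quality weights (limma 3.58.1) and the likelihood ratio test of edgeR. Further alternatives were other filters, a replicate block, leaving out each library and a log2 fold change limit of 1. The last alternative, chosen after seeing the data, left out the 2 libraries highest in hepatocyte markers. The edgeR script was tested on simulated counts.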

Additional observations from a re-analysis of the deposited data

How the results depend on the processing

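The 10 members gave 0 calls and 0 adjusted p-values under 0.05 with every alternative tool, scaling and filter and without each library, and none was free of overlap under 3 other scalings. Over all tested genes, 84 were called and 155 passed adjustment, against 128 and 315 with DESeq2, 138 and 264 with edgeR's likelihood ratio test and 131 and 264 without a filter on low counts. Counts were lower in the 8 libraries lower in hepatocyte markers, an alternative chosen after seeing the data (60 called, 95 passing), and without single libraries 60 to 98 were called and 100 to 160 passed, the fewest passing without *Ncr1+/+* replicate 3 (100) and replicate 1 (102). Directions near zero turned when single libraries were left out, where the log2 fold change ranged from -0.050 to 0.018 for *Hcst*, from -0.022 to 0.049 for *Lat* and from -0.0095 to 0.035 for *Vav1*. In the 8 libraries, *Hcst* had 0.0023, 0 other pathway genes were called and 1 passed adjustment, against 1 and 4 in all 10 libraries. A limit of 1 on the absolute log2 fold change also called 0 pathway genes. Without single libraries, 2 to 4 pathway genes passed adjustment, and 2 passed without *Ncr1gfp/gfp* replicate 2 or 3 or *Ncr1+/+* replicate 1, 3 or 5. The *Zap70* to *Syk* difference ranged from -0.20 to -0.11 (log2) in these fits. The cause of these moves was not tested. Libraries of the same number did not deviate together (correlations from -0.03 to 0.05). The labels do not say whether the numbers pair them, and low correlations cannot settle it. With the replicate block, 0 members and 1 other pathway gene were called, 4 pathway genes passed adjustment, and 87 genes were called in all.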
